A study of Mus musculus with 9 samples.

Results

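The 10 genes described here, *Setdb1*, *Ehmt1*, *Ehmt2*, *Suv39h1*, *Suv39h2*, *Cbx1*, *Cbx5*, *Trim28*, *Zfp57* and *Morc1*, encode enzymes, readers and partners of methylation on lysine 9 of histone H3 (H3K9) or of retroelement silencing. They were chosen by name from these functions, and all 10 were found among the 11199 genes that could be matched to the table of RNA levels. After reprogramming of spermatogonial stem cells (SSC) to induced pluripotent stem cells (SSCiPSC), the HP1 genes *Cbx1* and *Cbx5*, the co-repressor *Trim28*, the imprint-protecting zinc finger gene *Zfp57* and *Morc1* were higher, from 4.49-fold for *Cbx5* to 22.5-fold for *Zfp57* in mean level. *Suv39h1*, an H3K9 methyltransferase of constitutive heterochromatin, was lower, at 0.335 times its SSC level. The genes of the other H3K9 methyltransferases, *Setdb1*, *Ehmt1*, *Ehmt2* and *Suv39h2*, did not pass the test. The same 6 genes passed in iPSC from fibroblasts (fiPSC) compared with SSC, in the same directions, although both comparisons share the SSC libraries, and none of the 10 passed between the 2 kinds of iPSC. Calls were common among all loci too: 50.3% passed in SSCiPSC against SSC, 51.8% in fiPSC against SSC and 0.0678% between the iPSC.

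The study asked how the cell of origin affects reprogramming, and 9 libraries were sequenced, 3 each of SSC, SSCiPSC and fiPSC. All cells came from mice with the allele Gt(ROSA)26Sortm1(rtTA*M2)Jae, which makes the doxycycline-dependent activator from a ubiquitous locus. They also shared the allele Col1a1tm3(tetO-Pou5f1,-Sox2,-Klf4,-Myc)Jae, so SSC carry the 4 reprogramming factors too, and their own *Pou5f1*, *Sox2*, *Klf4* and *Myc* transcripts cannot be told apart from those of the transgene at the level of a locus. SSC were primary cells at passage 0, enriched from testes at postnatal day 6 by plating and magnetic sorting for Gfra1, a receptor on their surface. SSCiPSC and fiPSC, the latter from fibroblasts of male fetuses, were at passage 10 to 11 per the labels, in embryonic stem cell medium with LIF and doxycycline. The study's methods instead describe lines from which doxycycline was withdrawn, a later passage, and magnetic sorting for SSEA1, a surface marker of pluripotent cells, to remove feeder cells before expression analysis. The study calls the 9 samples biological, but no source used here says whether libraries of a group came from separate animals or lines, so p-values measure the spread between these samples, which may in part be technical.

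The unit is FPKM, the fragments of a locus scaled to the length of its transcript and to the mapped fragments of the library, so that levels can be compared between genes. SSC libraries were the shallower ones: from the steps between low values, 1 FPKM was estimated to stand for 1.77, 4.64 and 1.39 fragments per kilobase in SSC replicates 1, 2 and 3 and for 13.4 to 17.8 in the 6 iPSC libraries. The shallowest value of any of the 10 genes, *Zfp57* in SSC replicate 3, rested on 10.2 fragments per kilobase, and the shallowest in iPSC, *Suv39h1* in SSCiPSC replicate 2, on 188. All 10 genes were at 1 FPKM or more in 9 of 9 libraries. The labels fit the defining markers in part. *Gfra1* was at 37.7, 34.1 and 23.9 FPKM in SSC and at no more than 0.171 FPKM in iPSC, and *Nanog* was at 0 in the 3 SSC libraries and from 270 to 483 FPKM in iPSC. SSC libraries also held RNA of Sertoli cells, the somatic cells that surround germ cells in the tubule: the 8 of 11 listed Sertoli markers with a locus summed to 1395, 1428 and 1159 FPKM, more than the 764, 937 and 633 FPKM of 14 germ line markers, with *Clu* the most abundant. In iPSC the Sertoli sum was from 10.1 to 14.7 FPKM, and *Cst12*, *Defb19* and *Rhox8* were at 0. The germ line sum in iPSC was from 363 to 652 FPKM. Of the germ line markers, *Sall4*, *Kit*, *Lin28a* and *Etv5* were higher in every iPSC library than in SSC. *Stra8* overlapped, and the rest were lower in iPSC, as *Gfra1* was. Fewer cells of a type and less RNA per cell cannot be told apart in such samples, and how much of each SSC value below comes from cells other than germ cells was not tested.

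Methyl groups on H3K9 mark silent chromatin. SETDB1, EHMT1 (GLP), EHMT2 (G9a), SUV39H1 and SUV39H2 add them, with EHMT1 and EHMT2 acting as a pair mainly on dimethylation in euchromatin and the SUV39H enzymes on trimethylation at pericentromeric repeats. HP1 proteins, encoded by *Cbx1* (HP1 beta), *Cbx3* (HP1 gamma) and *Cbx5* (HP1 alpha), bind the mark. At endogenous retroviruses, zinc finger proteins with a KRAB domain recruit TRIM28 (KAP1), which brings SETDB1, and ZFP57 takes TRIM28 to the methylated allele of imprinting control regions. MORC1 is an ATPase known for silencing retroelements in male germ cells.

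The sequences before the start sites are shown for 4 of the genes that were higher in iPSC and for *Suv39h1*, the gene that was lower, because members that moved together may be compared there. They are the 250 bases before a RefSeq start site on build GRCm38.p6, read 5′ to 3′ on the strand of the gene, and capitals mark any of 3 motifs on either strand: CACGTG (the E-box of Myc and its relatives, the same on both strands), GCGGGA (the core of E2F sites) and GGGCGG (the GC box of Sp factors), of which GCGGGA and GGGCGG may overlap. The windows lie at chr17:37000913-37001162 (*Zfp57*, plus strand), chr7:13023902-13024151 (*Trim28*, plus), chr11:96788885-96789134 (*Cbx1*, plus), chr15:103239853-103240102 (*Cbx5*, minus) and chrX:8074761-8075010 (*Suv39h1*, minus).
Zfp57: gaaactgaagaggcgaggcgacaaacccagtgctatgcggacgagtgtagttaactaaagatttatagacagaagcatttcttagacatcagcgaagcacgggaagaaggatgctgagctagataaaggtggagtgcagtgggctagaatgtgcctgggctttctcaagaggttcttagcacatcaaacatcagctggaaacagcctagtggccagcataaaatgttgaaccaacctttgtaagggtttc
Trim28: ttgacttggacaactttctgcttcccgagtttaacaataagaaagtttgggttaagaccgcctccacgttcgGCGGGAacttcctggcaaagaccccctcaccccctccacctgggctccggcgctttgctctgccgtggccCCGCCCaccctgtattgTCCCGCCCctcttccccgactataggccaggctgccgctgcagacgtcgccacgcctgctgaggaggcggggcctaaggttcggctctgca
Cbx1: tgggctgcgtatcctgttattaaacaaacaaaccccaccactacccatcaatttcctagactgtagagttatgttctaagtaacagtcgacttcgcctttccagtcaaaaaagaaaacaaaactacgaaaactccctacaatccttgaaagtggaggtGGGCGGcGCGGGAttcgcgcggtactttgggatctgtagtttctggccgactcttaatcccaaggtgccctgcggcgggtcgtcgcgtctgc
Cbx5: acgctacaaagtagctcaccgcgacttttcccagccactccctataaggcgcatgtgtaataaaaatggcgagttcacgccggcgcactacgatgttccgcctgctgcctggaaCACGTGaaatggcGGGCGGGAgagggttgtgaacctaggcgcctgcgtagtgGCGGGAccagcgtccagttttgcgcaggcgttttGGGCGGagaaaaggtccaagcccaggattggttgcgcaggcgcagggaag
Suv39h1: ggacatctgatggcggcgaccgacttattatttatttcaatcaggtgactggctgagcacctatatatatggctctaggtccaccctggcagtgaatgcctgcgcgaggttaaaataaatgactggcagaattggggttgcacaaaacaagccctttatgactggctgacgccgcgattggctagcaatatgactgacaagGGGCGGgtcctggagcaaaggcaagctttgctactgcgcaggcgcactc

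A CpG dinucleotide occurred 6 times in the *Zfp57* window, which is the median of the 32851 windows of this length, against 17 times for *Trim28*, 16 for *Cbx1*, 22 for *Cbx5* and 11 for *Suv39h1*. *Zfp57*, the gene with the largest difference, thus had the fewest CpG of the 5, and its other RefSeq starts had 3 and 7. Of all windows, 6.02% hold CACGTG, 16.9% GCGGGA and 32.7% GGGCGG. The *Cbx5* window held 1 CACGTG, 2 GCGGGA and 2 GGGCGG, *Trim28* 2 GCGGGA and 2 GGGCGG, *Cbx1* 1 GCGGGA and 1 GGGCGG, and *Suv39h1* 1 GGGCGG. None of the 3 was found in the printed *Zfp57* window, while the window of another *Zfp57* start, with 7 CpG, held 1 GCGGGA. The window of another *Suv39h1* start held 25 CpG, more than any printed window, and 1 GGGCGG. The window of another *Cbx5* start held 7 CpG and 1 GGGCGG and neither of the other motifs. Among the members not printed, the 2 *Ehmt2* windows held 2 and 1 CACGTG. In all, 9 of the 10 genes had a window, and *Morc1* had none.

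For each comparison, log2(FPKM + 1) was fitted with limma across every locus that reached 1 FPKM in 3 or more of the 6 libraries compared, and a locus was called at a Benjamini-Hochberg adjusted p below 0.05. Fold changes below are differences on that log2 scale with their standard error (SE), which understate the change of low genes, while ratios are of mean FPKM. Calls were common: 50.3% of 36544 loci were called in SSCiPSC against SSC (26.2% higher and 24.1% lower) and 51.8% of 38007 in fiPSC against SSC (28% higher and 23.7% lower). Among the 17599 loci at 1 FPKM or more in all 9 libraries, as the 10 genes were, 48.7% and 51.4% were called. The 6 of 10 genes called in each comparison lie near these shares in total, with 5 of 10 higher and 1 of 10 lower. The groups did not overlap for those same 6 genes, against 59.8% and 61.6% of loci. The median log2 fold change was 1.22 and 0.99 over the 10 genes, beside 0.11 and 0.17 over all loci tested. All loci lean upward where the level is higher. Among the 16833 loci with a mean of at least 5 FPKM, as the 10 genes had, the medians were 0.48 and 0.43. Of these loci 38.2% and 38.8% were called higher and 19.4% and 21.6% lower. Quantile normalization lowered the medians of the 10 to 0.56 and 0.40. Several loci may share an interval, and the interval of *Ehmt1* holds 13 loci, that of *Suv39h1* 8, that of *Zfp57* 5, those of *Trim28* and *Cbx5* 3 each and that of *Setdb1* 2, while *Ehmt2*, *Suv39h2*, *Cbx1* and *Morc1* have theirs alone.

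Among the methyltransferases, *Setdb1* (chr3:95323525-95357202, minus strand), the enzyme that TRIM28 recruits, was at 48.2, 54.3 and 42.7 FPKM in SSC. In SSCiPSC it was at 51.1, 70.4 and 57.5 FPKM and in fiPSC at 53.1, 45.5 and 56 FPKM. The 3 groups overlapped. The log2 fold change was 0.29 (SE 0.17, 95% confidence interval -0.11 to 0.69, limma adjusted p = 0.196) in SSCiPSC and 0.09 (SE 0.13, interval -0.24 to 0.42, adjusted p = 0.614) in fiPSC, both against SSC. Under quantile normalization both turned negative, to -0.31 and -0.40, the latter with an adjusted p of 0.0353.

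*Ehmt1* (chr2:24789928-24919614, minus strand), which encodes GLP, was at 29.9, 33.5 and 27.9 FPKM in SSC, 24.6, 36.4 and 32.8 FPKM in SSCiPSC and 34.1, 29.7 and 37.4 FPKM in fiPSC. Its groups overlapped, with log2 fold changes of 0.02 (interval -0.41 to 0.46, adjusted p = 0.926) and 0.14 (interval -0.18 to 0.46, adjusted p = 0.409) against SSC. Loci without a strand in the *Ehmt1* interval were at no more than 14.2 FPKM. Those called there were all lower, by log2 fold changes of -1.91 to -1.41 in SSCiPSC and -1.67 to -1.33 in fiPSC, and the rest did not pass or were not tested. *Ehmt2* (chr17:34898469-34914052, plus strand), which encodes G9a, the partner of GLP, is split into 2 loci. The one used, over the 3′ part of the gene (chr17:34905243-34914048), was at 56, 87.6 and 50.2 FPKM in SSC, 38, 67.1 and 42.1 FPKM in SSCiPSC and 58.4, 45.2 and 65 FPKM in fiPSC. These groups overlapped too, and replicate 2 was the highest in both SSC and SSCiPSC. The log2 fold change was -0.39 (SE 0.29, adjusted p = 0.309) in SSCiPSC and -0.17 (SE 0.24, adjusted p = 0.594) in fiPSC. The other locus, which also holds sequence upstream of the gene, differed by -0.65 (adjusted p = 0.101) and -0.47 (adjusted p = 0.15). With quantile normalization the *Ehmt2* locus passed the threshold, at -1.02 (adjusted p = 0.0173) and -0.73 (adjusted p = 0.0375).

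Of the SUV39H pair, *Suv39h1* passed the test and *Suv39h2* did not. *Suv39h1* (chrX:8061171-8074760, minus strand) was at 59.7, 53 and 33.9 FPKM in SSC, 19.2, 13.9 and 15.9 FPKM in SSCiPSC and 15.2, 22.6 and 13.7 FPKM in fiPSC. Every iPSC library was below every SSC library. It fell by 1.50 on the log2 scale in SSCiPSC (SE 0.25, adjusted p = 0.00287), and its log2 fold change in fiPSC was -1.45 (SE 0.27, adjusted p = 0.00536). Its interval also holds a plus-strand locus, where *Gm14820* is annotated antisense, at 1.36, 0.96 and 2.84 FPKM in SSC, 13.3, 20 and 15.7 FPKM in SSCiPSC and 10.6, 9.94 and 14.3 FPKM in fiPSC. That locus moved the other way. Strands were assigned from the order of the table, so the split of reads between both strands is a limit of this result. *Suv39h2* (chr2:3455815-3475031, minus strand), known for its high level in testis, was at 19.5, 17.4 and 14.9 FPKM in SSC, 18, 18.6 and 18 FPKM in SSCiPSC and 18.7, 16.9 and 16.4 FPKM in fiPSC. Its log2 fold changes were 0.08 (interval -0.29 to 0.45, adjusted p = 0.709) and 0.01 (interval -0.33 to 0.35, adjusted p = 0.963), and the groups overlapped.

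Both HP1 genes among the 10 rose. *Cbx1* (chr11:96789127-96808640, plus strand) was at 84.8, 117 and 110 FPKM in SSC, 623, 720 and 641 FPKM in SSCiPSC and 627, 550 and 654 FPKM in fiPSC. The lowest iPSC library was above all SSC libraries. The log2 fold change was 2.67 (SE 0.16, adjusted p = 0.000106) in SSCiPSC, a ratio of means of 6.35, and 2.55 (SE 0.15, adjusted p = 0.000104) in fiPSC, a ratio of 5.86. With quantile normalization these were 1.51 and 1.52, still called. *Cbx5* (chr15:103191544-103239816, minus strand) was at 22.4, 28.5 and 35.1 FPKM in SSC, 134, 132 and 119 FPKM in SSCiPSC and 133, 134 and 129 FPKM in fiPSC. The 6 iPSC values lay close together and far above SSC, with log2 fold changes of 2.15 (SE 0.18, adjusted p = 0.00026) and 2.19 (SE 0.17, adjusted p = 0.000192). The 5 loci without a strand beyond the 3′ end of the *Cbx5* locus, each with at least 94.1% of its length within the gene, differed in the same direction, by 1.36 to 3.29 in SSCiPSC and by 1.59 to 3.57 in fiPSC. The most abundant of these, which would stand for *Cbx5* if any locus within the gene were allowed, gave 1.36 (adjusted p = 0.0176) and 1.59 (adjusted p = 0.00912). It is the shortest of the 5 (chr15:103196443-103196565). In SSC it was at 240, 275 and 563 FPKM, where the others were at no more than 36.9 FPKM. The effect of its short length on its FPKM was not tested.

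In the KRAB system, *Trim28* (chr7:12999114-13031035, plus strand) was at 127, 148 and 114 FPKM in SSC, 468, 1029 and 613 FPKM in SSCiPSC and 534, 391 and 658 FPKM in fiPSC. Every iPSC library was above SSC, and SSCiPSC replicate 2 was the highest of all values of the 10 genes. The log2 fold change was 2.36 (SE 0.30, adjusted p = 0.000963) in SSCiPSC and 2.0 (SE 0.21, adjusted p = 0.000549) in fiPSC. With quantile normalization these were 1.23 (adjusted p = 0.0138) and 0.92 (adjusted p = 0.00314). The locus covers 52.9% of the annotated gene. *Zfp57* (chr17:37001163-37010635, plus strand) was at 9.27, 9.31 and 7.36 FPKM in SSC, the lowest of the 10 genes there, at 175, 254 and 154 FPKM in SSCiPSC and at 134, 121 and 163 FPKM in fiPSC. It rose by 4.31 (SE 0.22, 95% confidence interval 3.79 to 4.83, adjusted p = 6.55e-05) in SSCiPSC and by 3.86 (SE 0.15, interval 3.49 to 4.24, adjusted p = 3.55e-05) in fiPSC, ratios of means of 22.5 and 16.1. This was the largest change among the 10 in both comparisons.

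*Morc1* (chr16:48431237-48630900, plus strand) was at 22, 29.1 and 19.4 FPKM in SSC, 132, 124 and 105 FPKM in SSCiPSC and 89.1, 72.2 and 95.8 FPKM in fiPSC. It was thus higher in iPSC than in the SSC libraries, by 2.32 (SE 0.19, adjusted p = 0.000227) in SSCiPSC and 1.83 (SE 0.19, adjusted p = 0.000459) in fiPSC. No library of iPSC overlapped SSC. The locus covers the whole gene and shares its interval with no other locus.

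**Figure D1:**
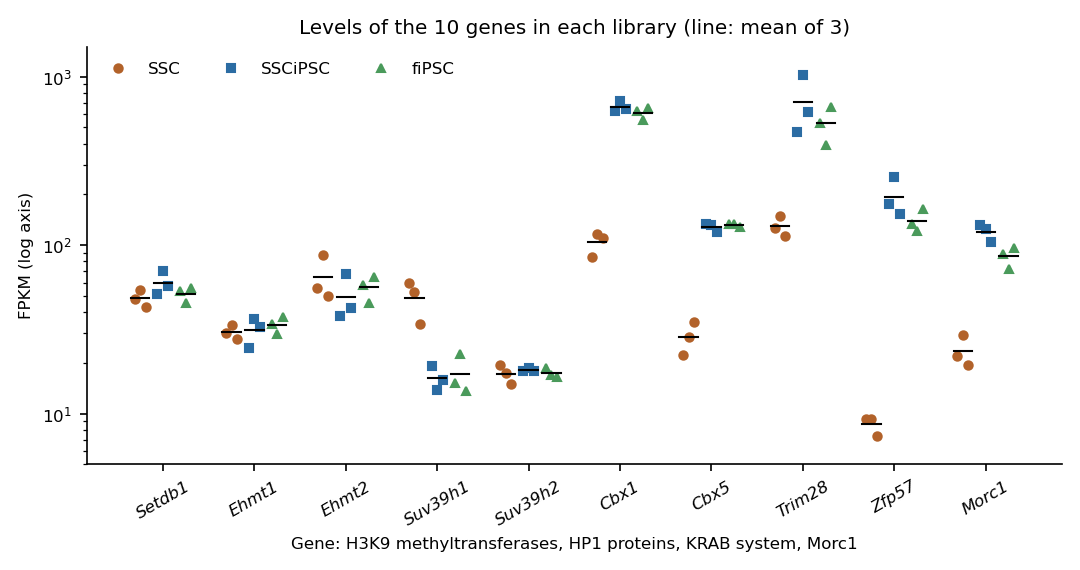
FPKM of the 10 genes on a log axis, with 1 point for each of the 3 libraries of SSC (circles), SSCiPSC (squares) and fiPSC (triangles) and a line at the group mean. *Cbx1*, *Cbx5*, *Trim28*, *Zfp57* and *Morc1* lie higher in all 6 iPSC libraries than in SSC, *Suv39h1* lies lower, and the groups of the other 4 genes overlap.

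The order of the levels differed between SSC and iPSC. In SSC the mean fell from *Trim28* (129 ± 17.2 FPKM, SD, n = 3) and *Cbx1* (104 ± 17, n = 3) through *Ehmt2*, *Suv39h1*, *Setdb1*, *Ehmt1*, *Cbx5*, *Morc1* and *Suv39h2* to *Zfp57* (8.65 ± 1.11, n = 3). Neighbours overlapped in SSC, except *Setdb1* with *Ehmt1* and *Suv39h2* with *Zfp57*. In SSCiPSC the order was *Trim28* (703 ± 291, n = 3), *Cbx1* (661 ± 51.8, n = 3), *Zfp57* (194 ± 52.5, n = 3), *Cbx5*, *Morc1*, *Setdb1*, *Ehmt2*, *Ehmt1*, *Suv39h2* and *Suv39h1* (16.3 ± 2.66, n = 3). There the pairs that overlapped were *Trim28* with *Cbx1*, *Cbx5* with *Morc1*, *Setdb1* with *Ehmt2* and *Suv39h2* with *Suv39h1*. In fiPSC *Cbx1* (610 ± 54.2, n = 3) stood before *Trim28* (528 ± 134, n = 3) and *Ehmt2* before *Setdb1*, but in both pairs the libraries overlapped, as did *Zfp57* with *Cbx5* and *Suv39h2* with *Suv39h1*. Thus *Zfp57* stood at rank 10 in SSC and at rank 3 in both iPSC groups, and *Suv39h1* at rank 4 in SSC and 10 in both.

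Ratios of related genes within a library do not depend on a scaling by 1 factor per library, apart from the added 1 FPKM. Quantile normalization is not such a scaling and can change them. The log2 ratio of *Suv39h1* to *Suv39h2* was 1.56, 1.55 and 1.13 in SSC, 0.08, -0.40 and -0.17 in SSCiPSC and -0.28, 0.40 and -0.25 in fiPSC, so that all SSC libraries were at 1.13 or more and all iPSC libraries between -0.40 and 0.40. The log2 ratio of *Cbx1* to *Cbx5* was 1.83 ± 0.19 (SD, n = 3) in SSC, 2.35 ± 0.13 in SSCiPSC and 2.20 ± 0.15 in fiPSC. With quantile normalization the log2 fold changes of *Cbx1* and *Cbx5* were 1.51 and 1.53 in SSCiPSC and 1.52 and 1.66 in fiPSC. The higher ratio in iPSC was thus absent with that normalization. The log2 ratio of *Ehmt1* to *Ehmt2* was -1.02 ± 0.29 in SSC, -0.61 ± 0.26 in SSCiPSC and -0.71 ± 0.11 in fiPSC, with overlap between SSC and SSCiPSC. Without SSC replicate 2 its difference from SSC went from 0.42 to 0.25 in SSCiPSC and from 0.31 to 0.14 in fiPSC. *Cbx3*, the remaining HP1 gene, was at 26.3, 19.2 and 26.7 FPKM in SSC, 35.7, 32.7 and 37.2 FPKM in SSCiPSC and 32.5, 33.9 and 30.9 FPKM in fiPSC. Its log2 ratio to *Cbx1* was -2.07 ± 0.45 (SD, n = 3) in SSC and -4.19 in both iPSC groups (SD 0.20 and 0.19), and that to *Cbx5* was -0.23 ± 0.40 in SSC, -1.84 ± 0.17 in SSCiPSC and -1.99 ± 0.04 in fiPSC. The most abundant locus within *Cbx5*, the short one described above, gave other differences between SSCiPSC and SSC. In the *Cbx1* to *Cbx5* ratio the difference was 1.31 instead of 0.52, and in the *Cbx3* to *Cbx5* ratio -0.82 instead of -1.61. Between fiPSC and SSC these differences were 0.96 instead of 0.36 and -1.16 instead of -1.76. With quantile normalization the log2 fold change of *Cbx3* was 0.20 in SSCiPSC and 0.17 in fiPSC, still below those of *Cbx1* and *Cbx5*. For 5 pairs and 3 comparisons, 15 two-sided exact permutation tests were run. With 3 libraries against 3 the smallest possible p is 0.1, which the *Suv39h1*, *Cbx1* to *Cbx5* and *Cbx3* ratios reached in both comparisons with SSC (adjusted p = 0.167), so none could pass 0.05.

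**Figure D2:**
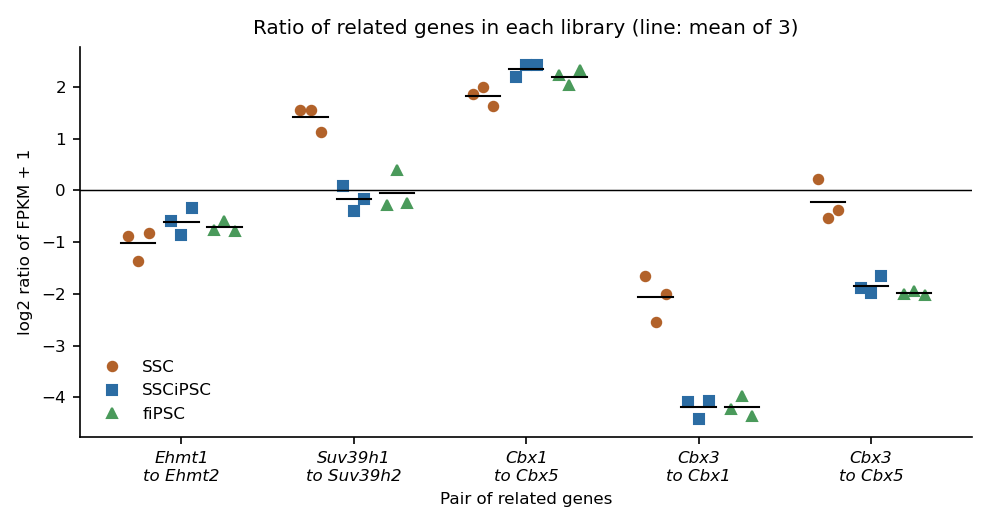
Log2 ratio of FPKM + 1 for 5 pairs of related genes, with 1 point for each library of SSC (circles), SSCiPSC (squares) and fiPSC (triangles) and a line at the mean of 3. The ratio of *Suv39h1* to *Suv39h2* is 1.41 on average in SSC and near 0 in iPSC, and *Cbx3* is lower relative to *Cbx1* and *Cbx5* in iPSC.

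Between the 2 kinds of iPSC, 0 of the 10 genes passed the limma test, against 0.0678% of 33948 loci. At an unadjusted p below 0.05, 1 of the 10 passed, beside 11.7% of loci, and for 1 of 10 the groups did not overlap, beside 18.6%. That gene was *Morc1*, lower by 0.49 on the log2 scale in fiPSC (log2 fold change -0.49, SE 0.15, 95% confidence interval -0.83 to -0.15, adjusted p = 0.303). *Zfp57* differed by -0.45 (interval -0.93 to 0.03, adjusted p = 0.447) and *Trim28* by -0.37 (interval -1.10 to 0.37, adjusted p = 0.691), with overlapping groups. Without SSCiPSC replicate 2 these differences were -0.25 and -0.05. The narrowest intervals were those of *Cbx5* (-0.19 to 0.27) and *Suv39h2* (-0.34 to 0.20), and the widest that of *Trim28*, so for this gene a difference of up to 1.10 on the log2 scale lay within the error. The median over the 10 genes was -0.10, beside 0.01 over all loci.

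**Figure D3:**
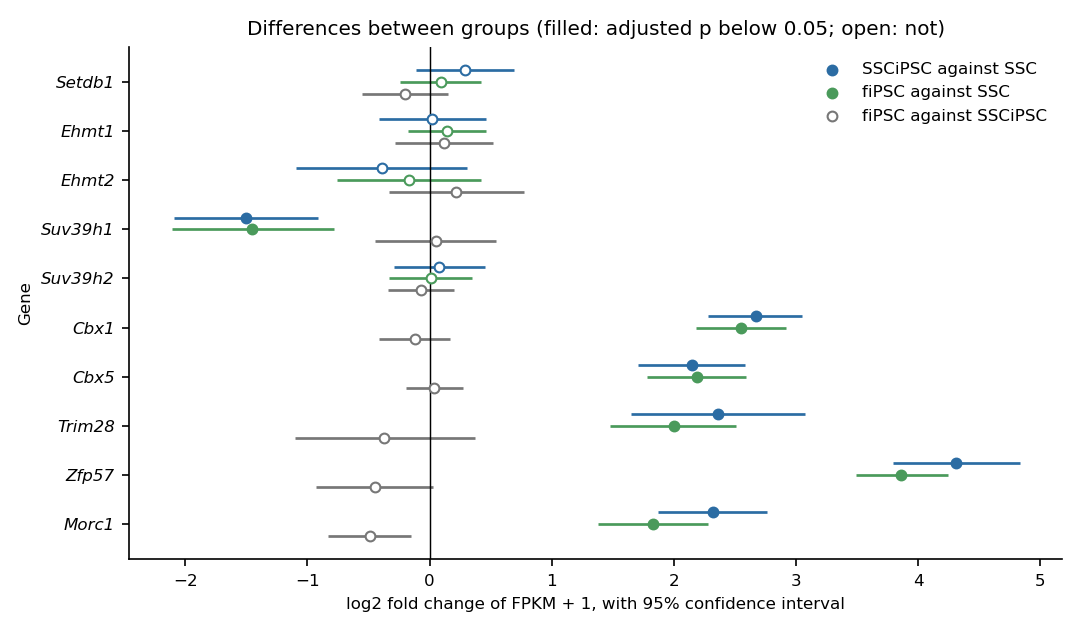
Log2 fold change of FPKM + 1 for each of the 10 genes in the 3 comparisons, with bars for the 95% confidence interval of the limma fit. Points are filled where the adjusted p was below 0.05: 6 genes in each comparison with SSC, of which *Suv39h1* was the lower one, and no gene between fiPSC and SSCiPSC.

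Replicates of a group varied together for part of the genes. In SSCiPSC, 7 of the 10 were highest in replicate 2, as were 39.5% of the 17599 loci at 1 FPKM or more in all libraries. In fiPSC, 7 of 10 were highest in replicate 3 (38.6% of loci), and in SSC, 7 of 10 in replicate 2 (38.1% of loci), the deepest SSC library. *Trim28* showed the widest spread in SSCiPSC, from 468 to 1029 FPKM, and *Suv39h2* the narrowest, from 18 to 18.6 FPKM.

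A wider list of 51 genes of H3K9 and retroelement silencing, other than the 10, had a locus for 43. In SSCiPSC against SSC 31 of 43 were called, 21 higher and 10 lower, and in fiPSC against SSC also 31, 21 higher and 10 lower. The median log2 fold change was 0.45 in each, beside 50.3% and 51.8% of all loci called. Among all loci with a mean of at least 5 FPKM, the medians were 0.48 and 0.43. Of those loci, 38.2% and 38.8% were called higher and 19.4% and 21.6% lower. With quantile normalization 13 were higher and 15 lower in SSCiPSC (median 0.04), and 13 higher and 14 lower in fiPSC (median -0.07), so the excess of higher genes was absent there, while median-ratio scaling kept it (19 and 11 with a median of 0.30, and 18 and 10 with a median of 0.39). Between fiPSC and SSCiPSC 0 of 41 tested were called by limma (0.0678% of loci), with 5 at an unadjusted p below 0.05 (11.7% of loci). Of the partners and other methyltransferase genes, 1 of 5 rose and 1 fell in SSCiPSC against SSC, where 26.2% of all loci were called higher and 24.1% lower. *Trim24*, a relative of *Trim28*, rose by 0.75 (SE 0.18, adjusted p = 0.0135) but by only 0.04 (adjusted p = 0.854) with quantile normalization, and *Zfp644*, whose product acts with G9a and GLP, fell by 0.67 on the log2 scale (SE 0.15, adjusted p = 0.0103) and by 1.23 with quantile normalization. *Atf7ip*, the partner that stabilises SETDB1, differed by 0.09 (adjusted p = 0.709).

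Of the readers and the enzymes that methylate lysine 20 of histone H4, 4 of 6 rose and none fell in SSCiPSC (26.2% and 24.1% of all loci), against 3 and 1 with quantile normalization. *Uhrf1*, which reads H3K9 methylation and brings maintenance DNA methylation, was at 40.7, 42.4 and 39.5 FPKM in SSC, 170, 276 and 190 FPKM in SSCiPSC and 176, 160 and 207 FPKM in fiPSC, a log2 fold change of 2.31 (SE 0.20, adjusted p = 0.000262) in SSCiPSC. *Kmt5c*, the H4K20 methyltransferase that follows HP1, rose by 2.31 (SE 0.32, adjusted p = 0.0015), from 3.06, 8.41 and 5.85 FPKM in SSC. *Mphosph8*, the reader of the HUSH complex, rose by 1.15 (adjusted p = 0.00395) in SSCiPSC and by 0.93 (adjusted p = 0.01) in fiPSC. With quantile normalization these values were 0.67 (adjusted p = 0.0415) and 0.56 (adjusted p = 0.0732), so that the call in fiPSC was lost. *Cbx3* rose by 0.54 (SE 0.17, adjusted p = 0.0357) in SSCiPSC, a call lost with median-ratio scaling (0.40, adjusted p = 0.101) and quantile normalization (0.20, adjusted p = 0.435), and differed by 0.43 (adjusted p = 0.056) in fiPSC, which did not pass. Its locus has only just over 50% of its length within the gene.

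Of the HUSH and MORC genes, 2 of 5 rose and 2 fell in SSCiPSC, and all loci were likewise called in both directions (26.2% higher and 24.1% lower). *Fam208a*, which encodes the HUSH subunit TASOR, was at 23, 17.8 and 16.4 FPKM in SSC and from 62.6 to 78.3 FPKM in SSCiPSC (log2 fold change 1.79, adjusted p = 0.000414). *Pphln1*, another HUSH subunit, fell from 30.9, 36 and 30.5 FPKM to 10.9, 14.5 and 13.7 FPKM in SSCiPSC (log2 fold change -1.26, adjusted p = 0.00118). *Morc3* rose by 1.21 (adjusted p = 0.00146), or 0.67 (adjusted p = 0.0131) with quantile normalization, and *Morc4* fell by 1.87 on the log2 scale (adjusted p = 0.00146), to no more than 2 FPKM in SSCiPSC. Of the 3 MORC family genes called here, *Morc1* included, 2 were thus higher in SSCiPSC and 1 lower.

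Among chromatin assembly and remodelling genes, 7 of 9 rose and none fell in SSCiPSC (26.2% and 24.1% of all loci), against 4 and 1 with quantile normalization, where *Chd4* was the lower one. *Chaf1b* and *Chaf1a*, subunits of the assembly factor CAF-1, rose by 2.59 (SE 0.40, adjusted p = 0.00218) and 1.32 (SE 0.18, adjusted p = 0.00149), and *Smarcad1*, a remodeller known to act with TRIM28, by 2.10 (SE 0.19, adjusted p = 0.000304). *Chd4*, a subunit of the NuRD complex, differed by -0.06 (adjusted p = 0.864) without that normalization. Both KRAB zinc finger genes with a locus rose: *Zfp809*, whose product recognises a proviral primer binding site, by 1.43 (adjusted p = 0.00136), and *Zfp568*, which represses a placental *Igf2* transcript, by 1.83 (adjusted p = 0.000263).

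Of 9 H3K9 demethylase genes tested, 4 rose and 2 fell in SSCiPSC against SSC, a share called not far from the 50.3% of all loci (26.2% higher and 24.1% lower), and 1 rose and 3 fell with quantile normalization. *Kdm4c* was at 10.9, 9.19 and 9.32 FPKM in SSC, 82.2, 60 and 64.2 FPKM in SSCiPSC and 84.4, 71.6 and 80.8 FPKM in fiPSC (log2 fold change 2.68, SE 0.17, adjusted p = 0.000119 in SSCiPSC). *Kdm1a* and *Kdm3a* rose by 0.81 (adjusted p = 0.00638) and 0.73 (adjusted p = 0.0167), calls that quantile normalization removed (0.00 and 0.28). *Kdm7a* was at 48.4, 49.4 and 45.7 FPKM in SSC and 7.89, 7.37 and 7.32 FPKM in SSCiPSC (log2 fold change -2.52, adjusted p = 7.48e-05), and its relative *Phf8* fell by 1.32 on the log2 scale (adjusted p = 0.00125).

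Of 7 germ line silencing genes, 5 fell and 1 rose in SSCiPSC, beside 24.1% of all loci lower and 26.2% higher. *Tdrd9* and *Mov10l1*, helicases of the piRNA pathway, fell by 3.73 (SE 0.33) and 2.92 (SE 0.22, adjusted p = 0.000194) on the log2 scale. *Tdrd9* was at 19.3, 21.5 and 10.5 FPKM in SSC and at no more than 0.424 FPKM in SSCiPSC. It passed the filter on low values only through SSC, so its adjusted p is not given. *Piwil4*, also called lower, likewise passed only through SSC. *Mael*, another piRNA factor, went from 147, 196 and 135 FPKM in SSC to 21.7, 31.9 and 16.8 FPKM in SSCiPSC and 15.4, 13.2 and 19.2 FPKM in fiPSC. *Dnmt3l*, the cofactor of de novo DNA methylation, was the one that rose. It was at 0.622, 0 and 0 FPKM in SSC, where 3 fragments per kilobase correspond to 1.69, 0.647 and 2.16 FPKM. In SSCiPSC it was at 62, 110 and 81.8 FPKM and in fiPSC at 86.1, 54.1 and 125 FPKM. *Dnmt3l* passed the filter only through the iPSC libraries, so its adjusted p is not given. *Morc1*, which is also known from germ cells, moved in the direction of *Dnmt3l* and opposite to *Tdrd9*, *Mov10l1* and *Mael*.

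**Figure D4:**
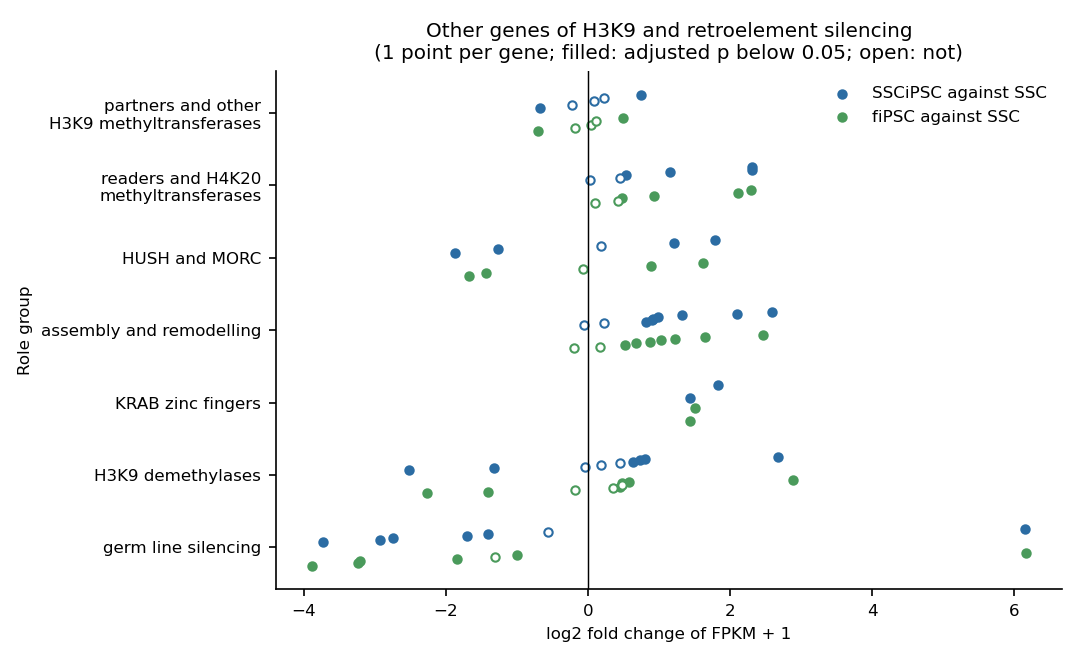
Log2 fold change of FPKM + 1 for the 43 further silencing genes with a locus, by role group, in SSCiPSC against SSC and fiPSC against SSC, 1 point per gene, filled where the adjusted p was below 0.05. Assembly and KRAB genes lie to the right of 0 apart from *Chd4* (with quantile normalization others, such as *Hdac2* at -0.08 and -0.24, lie to the left), whereas all germ line genes except *Dnmt3l* lie to the left.

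Other features of the samples moved with these differences. The 7 of 8 listed genes of dividing cells with a locus were all called higher in both comparisons with SSC (6 of 7 with quantile normalization), beside 26.2% and 28% of all loci, and their summed level was 257, 320 and 270 FPKM in SSC, from 1409 to 1474 FPKM in SSCiPSC and from 1232 to 1268 FPKM in fiPSC, with *Top2a* the most abundant. The pluripotency markers with a locus, 7 of 10, summed to 57.2, 60.2 and 63.2 FPKM in SSC and from 1548 to 1998 FPKM in iPSC, with *Klf4* the most abundant in SSC and *Pou5f1* in iPSC. Besides the Sertoli markers, Leydig cell markers (3 of 8 with a locus, *Cyp11a1* the most abundant) summed to 160, 124 and 236 FPKM in SSC and to no more than 0.358 FPKM in iPSC. Fibroblast or feeder markers (7 of 7, *Col3a1* the most abundant) summed to 90.5, 83.4 and 263 FPKM in SSC and from 9.93 to 39.6 FPKM in iPSC. Macrophage markers (6 of 7, *C1qa* the most abundant in SSC by mean and *Cd68* in iPSC) summed to 55.3, 19.6 and 158 FPKM in SSC and from 8.93 to 14.4 FPKM in iPSC. Peritubular myoid markers (4 of 6, *Acta2* the most abundant in SSC) summed to 85.8, 76.9 and 70.2 FPKM in SSC and from 8.98 to 12.5 FPKM in iPSC, and the 5 endothelial markers from 54.7 to 111 FPKM in SSC and from 85.1 to 129 FPKM in iPSC. The endothelial sum was carried by *Pecam1*, at 79.6 FPKM or more in iPSC, whereas *Cdh5* was at 22.2, 12.6 and 27.2 FPKM in SSC and at no more than 0.0458 FPKM in iPSC, and *Kdr* at 15.6, 9.06 and 13.3 FPKM and at no more than 0.103 FPKM. The part of each of these, and of the lower depth of SSC, in the differences of the 10 genes was not tested. None of the 7 listed genes of the 2-cell state had a locus, so that state was not examined.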

How the data were processed

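RNA of 9 libraries (3 each of SSC, SSCiPSC and fiPSC, grouped by the labels) was compared. Per the labels, ribosomal RNA was depleted and libraries were made with a stranded mRNA kit, and the study's methods name that kit for the mRNA in total RNA without a depletion step. The authors trimmed reads with Trimmomatic 0.32, aligned them with TopHat2 2.0.9 and Bowtie2 2.1.0 and quantified them with Cufflinks 2.2.1 and Cuffdiff, per the submitters' processing notes, and the table they deposited holds FPKM for each locus in each library. A scaling between libraries is not given in the sources used here, so the values were taken as they are and other scalings were tried.

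Of 54914 loci, 1 with a blank value was left out. Loci carry an interval and a strand given by the order of the table. The notes name mm9, but 92.8% of stranded loci lay over a coding gene of that strand on GRCm38, against 38.3% and 37.9% after shifts of 1000000 bp, and GRCm38 (GENCODE M21) was used. A gene took the locus of the same strand or of none with at least 50% overlap in both directions and the highest mean. The interval was shared with another locus in 23605 cases. Promoter windows came from RefSeq (GRCm38.p6).

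A linear model of log2(FPKM + 1) was fitted for 2 groups at a time (R 4.3.3, limma 3.58.1, with eBayes and its trend option). Loci had to reach 1 FPKM in 3 or more of the 6 libraries, and the threshold was an adjusted p of 0.05. FPKM are not counts, so no count model was the main test. The steps between low values gave whole fragments and the depth. Ratios of related genes were compared by two-sided exact permutation. The fit and the depth estimate were tested on simulated data. Plots used matplotlib 3.10.9, and the other steps ran in Python 3.11.15 (pandas 2.3.3, scipy 1.17.1, numpy 2.4.6).

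All 10 genes are named with every library. Of each role group of the wider list, the 3 genes with the largest change in each direction among those called in SSCiPSC against SSC are named, and others only where the group is described. The 10 genes and the lists were chosen with earlier results of these data known, and the printed windows after the values were seen.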

Additional observations from a re-analysis of the deposited data

Results flagged for a closer look

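Loci on the strand opposite to a member gene are not part of the values of the 10 genes, and 3 of them were higher in SSCiPSC than in SSC. The plus-strand locus at *Suv39h1* differed by 2.71 on the log2 scale (SE 0.32, limma adjusted p = 0.000786), in the direction opposite to the gene. The plus-strand locus at *Cbx5* differed by 2.0 (SE 0.44, adjusted p = 0.00933) and was at 0, 1.47 and 1.88 FPKM in SSC and 6.29, 6.38 and 7.44 FPKM in SSCiPSC. The minus-strand locus at chr7:12996302-13010162, where *Zbtb45* is annotated, differed by 1.86 (SE 0.40, adjusted p = 0.00874), from 2.15, 1.89 and 1.38 FPKM to 4.84, 14.8 and 10.2 FPKM. It overlaps the 5′ part of the annotated *Trim28* span. However, it ends upstream of the RefSeq *Trim28* start whose window is printed and of the *Trim28* locus used, so it may stand for the neighbouring gene. With 3 libraries in a group, no test for a single library apart from the others was made.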

How the results depend on the processing

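In both comparisons with SSC the 6 called members kept their direction and stayed called under 15 of 15 alternatives each (pseudocount, filter, threshold, scaling, fit and leaving out any library). The locus alternative kept them too but, with the short locus within *Cbx5*, lowered that gene to 1.36 and 1.59. Quantile normalization lowered *Trim28* (1.23 and 0.92) and *Cbx1* (1.51 and 1.52) by over 1.5 times, and called 7 members in SSCiPSC and 8 in fiPSC. It moved *Ehmt2* past the threshold (-1.02 and -0.73) and reversed *Setdb1* (-0.31 and -0.40), *Ehmt1* (-0.35 and -0.18) and *Suv39h2* (-0.10 and -0.12), and *Cbx1* between the iPSC (0.01). Median-ratio scaling reversed *Ehmt1* (-0.12 in SSCiPSC) and *Suv39h2* (-0.07 and -0.06). The median of all loci moved by -0.12 with median-ratio scaling in SSCiPSC and by -0.13 with quantile normalization in fiPSC. The cause was not tested. A mean of at least 5 FPKM left 9707 and 10158 called loci, and 11 between the iPSC, where a threshold of 0.01 gave 9 and a fit of all 9 libraries 11, of 23. Leaving out 1 library gave from 11357 to 13901 called loci in SSCiPSC, 11300 to 16585 in fiPSC and 2 to 10 between the iPSC, with fewer samples in each fit. The filter still asked for 1 FPKM in 3 libraries. Loci that reached it only in the group that lost a library were thus not tested. The loci tested went from 36544 to between 31212 and 33041 in SSCiPSC, and from 38007 to between 33203 and 33596 in fiPSC. The counts moved by over 1.5 times when any SSCiPSC library (11357 to 12184) or any fiPSC library (11300 to 11906) was left out of its comparison with SSC, and when any library was left out between the iPSC. Under that filter, the direction of calls moved with the group that lost a library. Without an SSCiPSC library 4761 to 5204 loci were higher and 6596 to 6980 lower, and without an SSC library 9012 to 9487 and 4101 to 4710 (fiPSC: 4757 to 5125 and 6543 to 6781, and 10495 to 10951 and 5016 to 5764). Median-ratio scaling gave 8667 higher and 9593 lower in SSCiPSC. For members that did not pass, leaving out 1 library gave from 0.17 (without SSCiPSC replicate 2) to 0.39 for *Setdb1*, from -0.64 (the same library left out) to -0.15 (SSC replicate 2 left out) for *Ehmt2*, from -0.09 to 0.18 for *Ehmt1* and -0.02 to 0.17 for *Suv39h2* in SSCiPSC, from -0.33 to 0.07 for *Ehmt2* and -0.09 to 0.10 for *Suv39h2* in fiPSC, and between the iPSC from -0.04 to 0.23 for *Ehmt1*, -0.16 to 0.18 for *Suv39h1* and -0.02 to 0.07 for *Cbx5*. Leaving out 1 library also gave from 0.00 to 0.18 for *Setdb1* and 0.07 to 0.23 for *Ehmt1* in fiPSC against SSC. Between the iPSC the same step gave from -0.62 to -0.05 for *Trim28*, -0.60 to -0.25 for *Zfp57* and -0.30 to -0.08 for *Setdb1*. The differences in log2 ratio between the iPSC then ranged from -0.23 to 0.02 (*Ehmt1* to *Ehmt2*), -0.11 to 0.24 (*Suv39h1* to *Suv39h2*) and -0.11 to 0.09 (*Cbx3* to *Cbx1*). Depth limits low loci in SSC, where 1 fragment per kilobase equals up to 0.721 FPKM.

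Replicate numbers showed no consistent pairing of the samples, though correlations over 3 libraries per group cannot exclude one. Deviations of same-numbered libraries correlated at 0.00, 0.12 and 0.02 (SSCiPSC and SSC), -0.01, -0.05 and -0.03 (fiPSC and SSC) and -0.09, -0.40 and -0.15 (fiPSC and SSCiPSC). Not every library correlated best with its own number. Between the iPSC none did, and libraries of other numbers correlated at -0.26 (fiPSC 3 with SSCiPSC 1) to 0.37 (fiPSC 3 with SSCiPSC 2). With the replicate number as a block 16926, 17546 and 6 loci were called, and no member's call changed.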
